A study of Mus musculus with 6 samples.

Results

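Kinesins are motor proteins that use ATP to move along microtubules or to take microtubule ends apart. Mitotic kinesins build the spindle, move and align chromosomes and set up the site of cytokinesis, and their genes are switched on late in the cell cycle by regulators that act through short promoter elements. Transport kinesins carry organelles, vesicles and RNA in cells that divide and in cells that do not. The adult heart muscle cell rarely divides, and its microtubule network serves transport and stiffness.

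The kinesin genes were taken from the deposited count table by their symbols, as every gene named Kif with a number and an optional letter a to c, and Kifc1, Kifc2 and Kifc3. This gave 37 genes of 22281 features, of which 12 were mitotic, 14 were transport and 11 were other kinesins, among them motors of cilia and regulators of microtubule ends. Together they held 55008 UMIs (unique molecular identifiers, each counted as 1 captured mRNA) of 50784032. The data were Drop-seq libraries of single cells from adult mouse hearts, 3 of YAP5SA (Yap5SA+/tg; Myh6-MCM, tamoxifen) and 3 of Control (Myh6-MCM, tamoxifen). YAP5SA is a form of the co-activator YAP that the Lats kinases cannot phosphorylate, and Myh6-MCM is a Cre recombinase that tamoxifen activates and that the cardiomyocyte promoter Myh6 drives, so both genotypes carried the Cre and received tamoxifen. Each genotype had 2 libraries of dissociated heart tissue (YAP5SA tissue-1 and tissue-2, Control tissue-2 and tissue-3) and 1 library of cardiomyocytes enriched by settling.

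Totals ran from 3382656 to 13483791 UMIs per library, and kinesin genes took 0.142% of them in YAP5SA tissue-1, 0.119% in YAP5SA tissue-2 and 0.137% in YAP5SA enriched, against 0.102% and 0.0635% in Control tissue-2 and tissue-3 and 0.0675% in Control enriched. Where values are given in runs of 3, they follow that order of libraries. The authors' clusters CM1, CM2, CM3 and YAP5SAcm were read together as cardiomyocytes, and the cardiomyocyte markers (Myh6, Tnnt2 and 6 others) were highest in them (54650 CPM, UMIs scaled to a total of 1000000) and next highest at 6153 CPM in another class. Cardiomyocytes numbered 343, 282 and 1004 in the YAP5SA libraries and 576, 1173 and 1068 in the Control libraries, with 6752627 and 13598023 UMIs in YAP5SA and Control. The libraries shared 10 cell barcodes of 21696. The labels do not say whether libraries came from separate animals, so p-values measure only the spread between libraries.

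Promoter windows of 300 bases, 250 before to 50 after the RefSeq start of the gene (build GRCm38.p6), were found for 29 of the 37 genes. The windows below are shown because their genes carried the genotype difference described next (Kif4, Kif11 and Kif23) or are a transport kinesin set against them (Kif1c). Capitals mark TTTGAA, the letters of the cell cycle genes homology region (CHR), and CCAAT, each on either strand. The windows lie at chrX:100625815-100626114 on the plus strand for Kif4, chr19:37376132-37376431 on the plus strand for Kif11, chr9:61946750-61947049 on the minus strand for Kif23 and chr11:70700298-70700597 on the plus strand for Kif1c.
Kif4: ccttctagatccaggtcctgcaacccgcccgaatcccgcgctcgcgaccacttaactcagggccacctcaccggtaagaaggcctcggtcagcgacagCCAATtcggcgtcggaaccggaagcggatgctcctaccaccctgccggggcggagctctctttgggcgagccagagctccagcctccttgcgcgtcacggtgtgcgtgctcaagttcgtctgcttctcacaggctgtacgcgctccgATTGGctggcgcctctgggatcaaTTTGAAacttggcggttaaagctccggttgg
Kif11: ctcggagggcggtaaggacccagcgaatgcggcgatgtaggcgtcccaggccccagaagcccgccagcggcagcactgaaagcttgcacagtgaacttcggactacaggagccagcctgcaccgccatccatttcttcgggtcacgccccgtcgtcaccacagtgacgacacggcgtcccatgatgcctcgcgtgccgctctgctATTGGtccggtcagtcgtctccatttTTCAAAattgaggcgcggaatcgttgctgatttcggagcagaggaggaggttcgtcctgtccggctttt
Kif23: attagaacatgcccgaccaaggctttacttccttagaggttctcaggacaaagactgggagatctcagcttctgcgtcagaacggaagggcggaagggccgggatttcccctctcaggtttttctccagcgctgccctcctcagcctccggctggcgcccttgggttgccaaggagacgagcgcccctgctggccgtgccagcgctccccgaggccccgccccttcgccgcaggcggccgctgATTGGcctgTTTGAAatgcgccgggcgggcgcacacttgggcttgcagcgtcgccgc
Kif1c: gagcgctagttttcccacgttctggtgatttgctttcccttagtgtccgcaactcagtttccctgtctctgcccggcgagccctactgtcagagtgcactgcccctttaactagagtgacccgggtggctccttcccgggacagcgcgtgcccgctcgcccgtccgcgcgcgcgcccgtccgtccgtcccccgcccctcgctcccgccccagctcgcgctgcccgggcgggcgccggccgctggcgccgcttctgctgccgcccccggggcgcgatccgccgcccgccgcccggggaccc

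TTTGAA or TTCGAA, searched on both strands, stood in the windows of 10 of 11 mitotic kinesins, 0 of 9 transport kinesins and 3 of 9 other kinesins, and in 19.4% of the windows of 27025 genes. CCAAT, which does not overlap the other letters in the windows shown, stood in 7 of 11 mitotic, 3 of 9 transport and 4 of 9 other kinesin windows, against 37.9% of all genes. Both were present in 7 of 11 mitotic kinesin windows and in 7.70% of all. These are matches of letters and do not show that a factor binds.

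Mitotic kinesin mRNA was higher in YAP5SA cardiomyocytes than in Control cardiomyocytes, and no transport kinesin passed the test with TMM, edgeR's adjustment for composition. UMIs of the 12 mitotic genes summed to 155, 152 and 86.0 CPM in the cardiomyocytes of the YAP5SA libraries, against 18.8, 2.60 and 1.04 CPM in those of the Control libraries. Every YAP5SA library lay above every Control library. On the same unscaled CPM the 14 transport genes summed to 1401, 1493 and 1164 CPM in YAP5SA, against 681, 455 and 559 CPM in Control, also without overlap. The counts behind the mitotic sums were small, at 737 UMIs in YAP5SA and 86 in Control, and the exact 95% Poisson intervals, which cover counting error only, ran from 77.5 to 180 CPM over the YAP5SA libraries and from 0.215 to 24.0 CPM over the Control libraries. In Control tissue-2, Kif22 alone held 29 of the 64 mitotic UMIs. With Kif22 left out, the sums were 143, 143 and 76.3 CPM in the YAP5SA libraries and 10.3, 1.91 and 0.694 CPM in the Control libraries.

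Gene by gene, cardiomyocyte UMIs were summed per library and tested with edgeR's quasi-likelihood test, with preparation and genotype as terms and Benjamini-Hochberg adjustment over all 11807 genes tested, and a gene was called at an adjusted p under 0.05. The test called 25.4% of all genes in either direction, 13.3% higher and 12.1% lower in YAP5SA. Of 26 kinesin genes tested, 9 were called higher and 0 lower, and 12 had an unadjusted p under 0.05, all of them higher in YAP5SA, beside 40.1% of all genes under it in either direction. By kind, 8 of 10 mitotic, 0 of 11 transport and 1 of 5 other kinesins were called higher. The median log2 fold change (YAP5SA over Control) was 3.90 over the mitotic kinesins tested, 0.52 over transport, -0.30 over other kinesins and 0.06 over all genes tested. Genes with low counts were left out of the test, and the called kinesins were near 0 in Control. They entered through their YAP5SA libraries, so counts and medians over the tested genes depend in part on the genotype where they are high. Without that filter the same 9 genes and Kif5a were called. Libraries of the genotypes did not overlap for 9 of 10 mitotic, 5 of 11 transport and 2 of 5 other kinesins, against 47% of all genes, with TMM. Every YAP5SA library was above every Control library for 9 mitotic, 4 transport and 1 other kinesin with TMM (25.4% of all genes), and for 10 mitotic, 9 transport and 2 other kinesins in unscaled CPM (50.2% of all genes; 57.4% did not overlap in either direction). The 2 mitotic genes outside the test had few UMIs in cardiomyocytes, 7 and 0 in YAP5SA and Control for Kif14, a motor of late cytokinesis, and 12 and 1 for Kif18b, which trims astral microtubules. The exact 95% interval of the pooled ratio of YAP5SA to Control, on unscaled totals, began at 2.90 for Kif14 and at 3.58 for Kif18b.

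The number of called kinesins rested on single libraries. Without YAP5SA tissue-2 it was 1 (Kif4), beside 1.73% of all genes called higher in that fit. Without YAP5SA tissue-1 it was 4 (Kif4, Kif20b, Kif23 and Kifc1), beside 4.02%, and without YAP5SA enriched it was 7, Kif13a of the transport kinesins among them, beside 6.97%. Without Control tissue-3 or without Control enriched it was 6 (Kif4, Kif11, Kif20a, Kif20b, Kif23 and Kifc1), beside 7.79% and 6.52%. Without Control tissue-2, the Control library with the most mitotic UMIs, 13 were called higher, the transport kinesins Kif3b and Kif5c among them, and 2 lower (Kif6 and Kif16b), beside 20.7% of all genes called higher. Kif2c was called in 1 of the 3 such fits that tested it, Kif9 in 1 of 4 and Kif15 in 1 of 5, while Kif4 was called in 6 of 6.

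**Figure D1:**
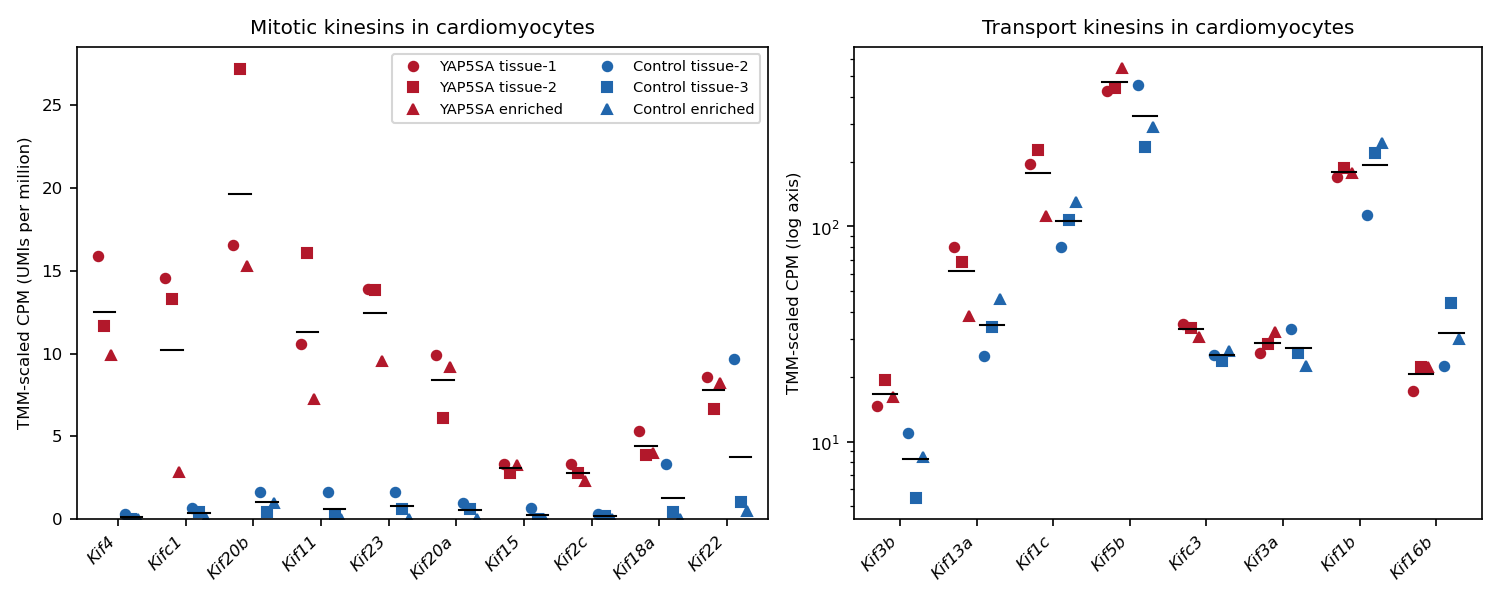
Level of tested kinesin genes in cardiomyocytes, in CPM after TMM scaling (edgeR's adjustment for composition) per library, with YAP5SA left of Control and black lines at the means. The 10 mitotic kinesins tested (left panel, linear axis) lie near 0 in most Control libraries and between 2.29 and 27.2 CPM in YAP5SA, while transport kinesins with at least 100 UMIs (right panel, log axis) include Kif5b between 235 and 543 CPM.

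The values below are CPM after TMM scaling, edgeR's adjustment for composition, in cardiomyocytes, in the order of libraries given above, and each error is a standard error. Among the motors that build the spindle, Kif11 (Eg5), which pushes the spindle poles apart, had 10.6, 16.1 and 7.25 in YAP5SA, against 1.67, 0.211 and 0 in Control (log2 fold change 4.23 ± 0.80, adjusted p = 0.0127). Kif15, which can maintain a bipolar spindle beside Kif11, had 3.31, 2.77 and 3.24 in YAP5SA, against 0.667, 0 and 0 in Control (3.68 ± 1.06, adjusted p = 0.0409). Kifc1, a minus-end motor that focuses spindle poles, had 14.6, 13.3 and 2.86 in YAP5SA, against 0.667, 0.422 and 0 in Control (4.71 ± 0.61, adjusted p = 0.00533). For all 3 genes every YAP5SA library lay above every Control library, and Kifc1 was lower in YAP5SA enriched than in both YAP5SA tissue libraries. Kifc1 has a near-identical copy, Kifc5b, between which reads may be split, and Kifc5b was also called higher (4.40, adjusted p = 0.0213).

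The chromosome and kinetochore motors were less uniform. Kif4, a chromokinesin that also works at the spindle midzone, had 15.9, 11.6 and 9.93 in YAP5SA, against 0.334, 0 and 0 in Control (6.49 ± 0.79, adjusted p = 0.00448). Its Control value rested on 1 UMI, so the fitted fold depends on the prior count: the pooled ratio of YAP5SA to Control was 195 with a 95% counting interval of 34.2 to 7794. Every YAP5SA library was above every Control library for Kif4. Kif2c (MCAK), which depolymerises microtubules at centromeres, had 3.31, 2.77 and 2.29 in YAP5SA, against 0.334, 0.211 and 0 in Control (3.63 ± 0.83, adjusted p = 0.0212). Its pooled ratio was 22.2 with an interval of 5.45 to 194, on 2 Control UMIs, and that of Kif15 was 27.2 (6.83 to 236), also on 2. Kif2c too was higher in every YAP5SA library than in any Control library. Kif22 (Kid), a chromokinesin of chromosome arms, had 8.61, 6.65 and 8.21 in YAP5SA, against 9.68, 1.05 and 0.498 in Control, so that Control tissue-2 was above all YAP5SA libraries (1.28 ± 0.94, adjusted p = 0.343). In unscaled CPM that order turned, with 12.3, 9.52 and 9.70 in YAP5SA, against 8.52 in Control tissue-2. Kif18a, which limits the length of kinetochore microtubules, had between 3.88 and 5.30 in YAP5SA and between 0 and 3.34 in Control, without overlap (1.97 ± 0.98, adjusted p = 0.174). Without Control tissue-2 both were called, Kif22 at 3.13 (adjusted p = 0.0035) and Kif18a at 3.79 (adjusted p = 0.0069).

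The 3 motors of the midzone and of cytokinesis that were tested were all called. Kif23 (MKLP1), the motor of centralspindlin, had 13.9, 13.9 and 9.54 in YAP5SA, against 1.67, 0.633 and 0 in Control (4.01 ± 0.66, adjusted p = 0.0096). Kif20a (MKLP2), which brings the Aurora B complex to the midzone, had 9.93, 6.10 and 9.16 in YAP5SA, against 1.0, 0.633 and 0 in Control (3.78 ± 0.73, adjusted p = 0.0135). Kif20b (MPP1), a motor of late cytokinesis, had 16.6, 27.2 and 15.3 in YAP5SA, against 1.67, 0.422 and 0.997 in Control (4.31 ± 0.56, adjusted p = 0.00533). In each of the 3 genes the YAP5SA and Control libraries did not overlap.

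Transport kinesins gave most of the kinesin UMIs of cardiomyocytes in both genotypes, at 8524 in YAP5SA and 7254 in Control. Kif5b, the ubiquitous heavy chain of kinesin-1, had 428, 442 and 543 in YAP5SA, against 457, 235 and 290 in Control (log2 fold change 0.52 ± 0.38, adjusted p = 0.338). Kif1b, a carrier of mitochondria and vesicles, had 170, 188 and 178 in YAP5SA, against 113, 220 and 246 in Control (-0.09 ± 0.36, adjusted p = 0.882). Kif1c, a fast carrier of vesicles and RNA, had 195, 226 and 112 in YAP5SA, against 80.1, 107 and 130 in Control (0.71 ± 0.38, adjusted p = 0.199). With TMM the libraries of the genotypes overlapped for all 3, while in unscaled CPM every YAP5SA library was above every Control library for all 3. For Kif1b the unscaled values were 243, 269 and 210 in YAP5SA, against 99.3, 143 and 171 in Control. For the endosome motors, Kif13a had 80.1, 68.7 and 38.2 in YAP5SA, against 25, 34.0 and 45.8 in Control (0.81 ± 0.39, adjusted p = 0.162). Kif16b, which binds early endosomes, had 17.2, 22.2 and 22.1 in YAP5SA, against 22.4, 44.1 and 29.9 in Control, every YAP5SA library being below every Control library (-0.65 ± 0.34, adjusted p = 0.200). Kif13a overlapped between the genotypes, YAP5SA enriched being below Control enriched. In unscaled CPM Kif13a did not overlap, YAP5SA being higher, and Kif16b did overlap.

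Of kinesin-2, the heterotrimeric motor of cilia and vesicles, Kif3a had 25.8, 28.3 and 32.4 in YAP5SA, against 33.4, 25.7 and 22.4 in Control, with overlap that was absent in unscaled CPM (0.10 ± 0.29, adjusted p = 0.834). Its partner Kif3b had 14.6, 19.4 and 16 in YAP5SA, against 11, 5.48 and 8.47 in Control, without overlap (1.01 ± 0.38, adjusted p = 0.0865). Kifc3, a minus-end motor at cell junctions and vesicles, had 35.1, 33.8 and 30.7 in YAP5SA, against 25.4, 23.6 and 26.4 in Control, also without overlap (0.40 ± 0.25, adjusted p = 0.276). None of the 3 passed the test. Of the low transport kinesins, Kif5c (2.18, adjusted p = 0.0791), Kif3c (1.46, adjusted p = 0.0993) and Kif13b (-0.05, adjusted p = 0.985) were not called. Kif5a, Kif1a and Kifc2 were too low to test: Kif5a, known as a neuronal heavy chain, had 21 UMIs in YAP5SA and 0 in Control, where the exact 95% interval of the pooled ratio, on unscaled totals, began at 10.5. Kif1a had 12 UMIs in YAP5SA and 3 in Control.

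**Figure D2:**
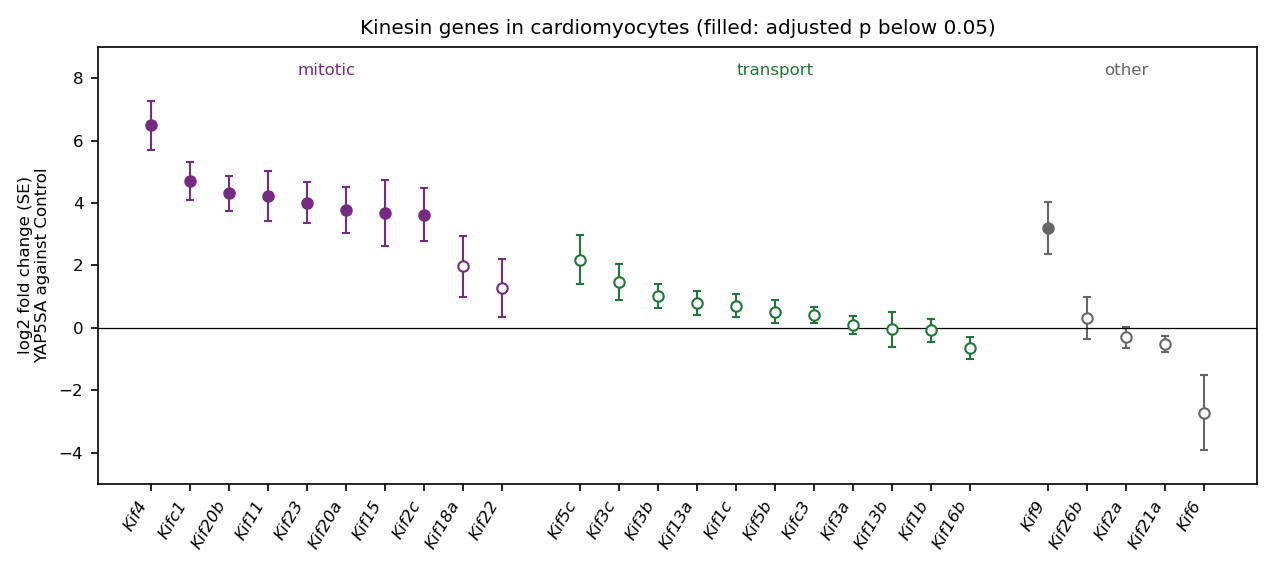
Log2 fold change (YAP5SA over Control) of each tested kinesin gene in cardiomyocytes with its standard error, by kind, with filled points for genes called at an adjusted p under 0.05. The called genes are 8 mitotic kinesins and Kif9, and no transport kinesin is filled.

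Of the other kinesins, Kif9, which acts in motile cilia and flagella, had 1.99, 3.33 and 3.63 in YAP5SA, against 0.334, 0.422 and 0 in Control (3.20 ± 0.85, adjusted p = 0.0321). The pooled ratio was 18.8 with a counting interval of 5.81 to 96.6, on 3 Control UMIs. Kif6, also a cilium gene, had 1.32, 1.11 and 0.191 in YAP5SA, against 0.334, 7.80 and 5.98 in Control (-2.72 ± 1.20, adjusted p = 0.135), so that the Control tissue libraries were far apart. Kif21a, which slows microtubule growth, had 25.8, 23.8 and 36.8 in YAP5SA, against 37.7, 38.8 and 45.4 in Control, every YAP5SA library being below every Control library (-0.51 ± 0.25, adjusted p = 0.170). In unscaled CPM this turned, with 36.8, 34.1 and 43.5 in YAP5SA, against 33.2, 25.2 and 31.6 in Control, so that every YAP5SA library was above. Kif2a, a depolymerase of spindle poles and neurons, had 22.5, 15.0 and 24.4 in YAP5SA, against 28.0, 29.9 and 18.9 in Control, with overlap (-0.30 ± 0.34, adjusted p = 0.546). Kif26b was not called (0.31, adjusted p = 0.767), and 6 further genes were too low to test.

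The calls of transport genes depended on TMM scaling. With library totals alone the log2 fold change at the median of all genes moved by 0.86, to 0.92, and the share of called genes that were higher in YAP5SA was 90.9% in place of 52.4%. Under those totals 16 kinesins were called higher, 7 of them transport (Kif1c, Kif3b, Kif3c, Kif5b, Kif5c, Kif13a and Kifc3), with the same 9 genes among the 16, beside 37% of all genes called higher. The log2 fold changes of Kif16b, Kif21a, Kif2a, Kif1b and Kif13b, below 0 with TMM, were 0.26, 0.35, 0.57, 0.82 and 0.83 with totals, and none of these 5 was called under either scaling.

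Genes that work with the kinesins were read from lists of known partners. All 12 mitotic partners were called higher in YAP5SA cardiomyocytes, beside 13.3% of all genes called higher. Their median log2 fold change was 4.60. Aurkb, with 12, 17 and 23 UMIs in YAP5SA and 0 in each Control library, passed the low-count filter through its YAP5SA libraries. The count and median of this list therefore depend in part on the genotype where its genes are high. Anln, the contractile ring scaffold anillin, was 5.63 higher on the log2 scale, Prc1, which bundles midzone microtubules and recruits Kif4, was 6.13 higher, and Incenp, of the Aurora B complex, was 2.83 higher. Cenpe, a kinetochore kinesin whose symbol falls outside the Kif names, had 28.5, 40.5 and 17.0 TMM-scaled CPM in YAP5SA, against 1.67, 1.05 and 0.498 in Control (4.72). Of 15 light chains and cargo adaptors tested, 3 were called higher and 2 lower, with a median of -0.42, beside 25.4% of all genes called in either direction. Those higher were Arl8a (3.55), a lysosomal GTPase, Kidins220 (2.16), a kinesin-1 cargo, and Klc1 (1.16), a kinesin-1 light chain, and those lower were Klc4 (-1.22), another light chain, and Kifap3 (-0.89), the kinesin-2 adaptor. Of 17 dynein and dynactin genes tested, Dync1h1, the dynein heavy chain, was called higher (2.26) and Dctn6 lower (-1.58), 2 of 17 beside the same 25.4%, with a median of -0.13. Dctn1, next by p, was not called (-0.82, adjusted p = 0.0919).

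Most of the mitotic kinesin mRNA of YAP5SA cardiomyocytes lay in the authors' cluster YAP5SAcm, which held 673 of 737 UMIs (91.3%) in YAP5SA and 5 of 86 (5.81%) in Control. These shares also reflect the size of the cluster. It held 212 of 343, 203 of 282 and 481 of 1004 cardiomyocytes in the YAP5SA libraries. In the Control libraries it held 50 of 576, 33 of 1173 and 16 of 1068. Because the cluster was made from these cells' genes, its level against other clusters is a description. Inside it the summed level was 213, 196 and 143 CPM in the YAP5SA libraries, against 27.4, 11.9 and 0 CPM in the Control libraries, where 50, 33 and 16 cells gave 4, 1 and 0 UMIs. In CM1, the largest Control cardiomyocyte cluster, the level was 6.05, 30.3 and 16.1 CPM in YAP5SA, against 16, 2.10 and 1.49 CPM in Control, and the libraries overlapped. In CM2 it was 43.0, 56.9 and 39.6 CPM in YAP5SA, against 33.9, 3.30 and 0 CPM in Control, without overlap but on 2, 2 and 15 UMIs in YAP5SA and 4, 2 and 0 in Control. In CM3 it was 19.7, 0 and 42.2 CPM in YAP5SA, against 30.8, 4.36 and 0 CPM in Control, with overlap. Within YAP5SAcm 8.63% of 6998 genes were called and 0 of 13 kinesins, 3 of which had an unadjusted p under 0.05, as did 20.7% of all genes. The 3 mitotic kinesins tested there were Kif23 (87 UMIs in YAP5SA and 0 in Control, adjusted p = 0.0825), Kifc1 (59 and 0 UMIs, adjusted p = 0.114) and Kif20b (144 and 2 UMIs, adjusted p = 0.184). These counts stand on unequal totals. The cluster held 745971, 937327 and 2313340 UMIs in the YAP5SA libraries, against 146194, 83820 and 27054 in the Control libraries. In cardiomyocytes without YAP5SAcm, 16 of 10306 genes and 0 of 13 kinesins were called, and 1 kinesin had an unadjusted p under 0.05.

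**Figure D3:**
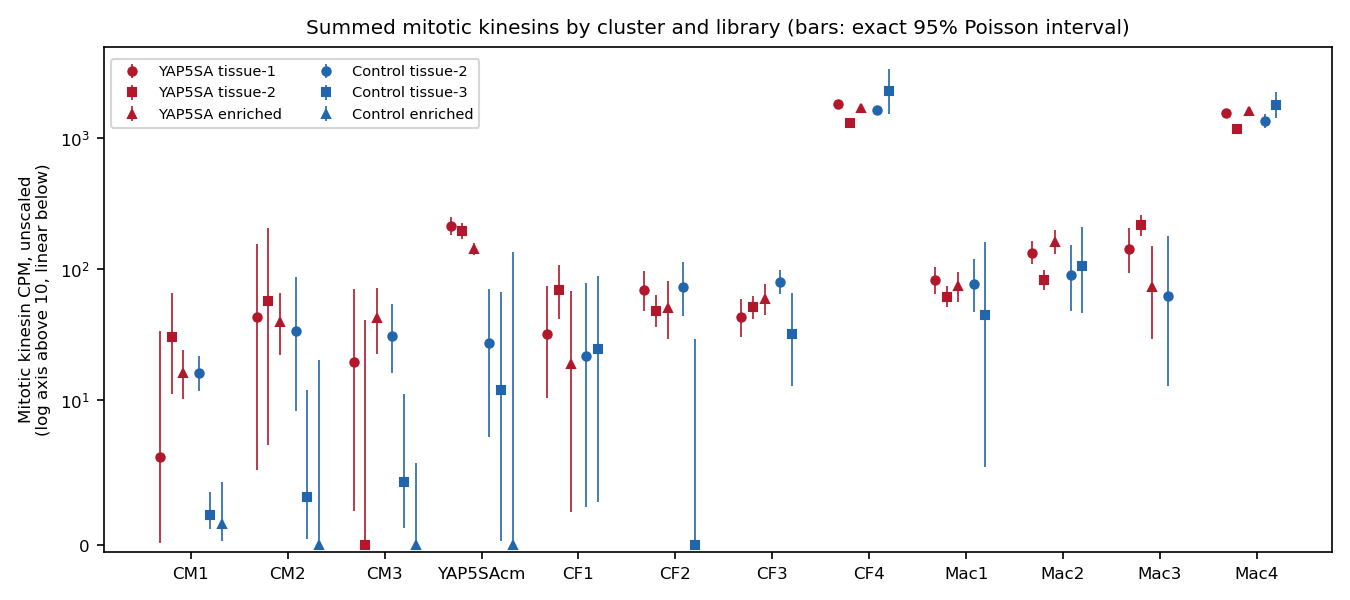
Summed level of the 12 mitotic kinesin genes in each of the authors' clusters, per library, in unscaled CPM (log axis above 10, linear below) with exact 95% Poisson intervals. The fibroblast cluster CF4 and the macrophage cluster Mac4 lie between 1170 and 2319 CPM in both genotypes, and YAP5SAcm lies between 143 and 213 CPM in the YAP5SA libraries.

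A minority of cardiomyocytes held mitotic kinesin UMIs. A mitotic kinesin UMI was found in 9.33%, 20.9% and 13.3% of cardiomyocytes in the YAP5SA libraries, against 8.33%, 1.62% and 0.187% in the Control libraries. Median depths differed, at 1876, 2679.5 and 2698 UMIs per cell in YAP5SA and 4595, 4565 and 2204 in Control. With each cell thinned to 1000 UMIs, which kept 288, 245 and 888 cells in YAP5SA and 560, 1156 and 1049 in Control, the shares were 5.56%, 10.2% and 6.42% in YAP5SA, against 2.50%, 0.346% and 0.0953% in Control. At 1000 UMIs, smooth muscle cells, a mostly quiescent class, showed such a UMI in 0 of 18, 1 of 22 and 0 of 26 cells in YAP5SA, against 1 of 18, 3 of 70 and 1 of 18 in Control, where the counts of 0 allow up to 16.7% and 11.5%. Endothelial cells, a larger class at median depths of 1094, 1150 and 1472 UMIs in YAP5SA and 1008, 1391 and 1114 in Control, showed one at 1000 UMIs in 8 of 81 (9.88%), 4 of 84 (4.76%) and 7 of 185 (3.78%) cells in YAP5SA, against 5 of 50, 27 of 661 (4.08%) and 4 of 170 (2.35%) in Control. The cardiomyocyte share was thus below the endothelial share in YAP5SA tissue-1 and in all 3 Control libraries, and above it in YAP5SA tissue-2 and YAP5SA enriched. Endocardial cells showed one in 1 of 39, 1 of 38 and 4 of 35 cells in YAP5SA, against 1 of 14, 2 of 213 and 0 of 10 in Control. None of these classes is shown to lack the genes, and the part of free RNA in the shares was not tested. Among YAP5SA cardiomyocytes with a mitotic UMI, 16 of 32, 23 of 59 and 57 of 134 held UMIs of 2 or more mitotic kinesin genes. In Control it was 5 of 48, 0 of 19 and 0 of 2. Pooled over libraries, without thinning, this was 96 of 225 (42.7%) in YAP5SA and 5 of 69 (7.25%) in Control. The same pooled share was 56.6% of 1051 fibroblasts in YAP5SA, against 60.9% of 466 in Control. In macrophages it was 59.2% of 2458 in YAP5SA, against 47.6% of 187 in Control. Control tissue-2 gave 450 of those 466 fibroblasts and 152 of those 187 macrophages. These pooled cells are not replicates of a genotype.

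In YAP5SA cardiomyocytes, cells called G2M by the authors' cell cycle scoring held most of this mRNA. There, 149 G2M cardiomyocytes (9.15%) held 573 of 737 mitotic UMIs (77.7%), while Control had 12 G2M cardiomyocytes with 6 UMIs. In Control, G1 cells held 80 of 86 mitotic UMIs (93.0%), at 17.4, 2.50 and 1.07 CPM. The level was 1343, 889 and 817 CPM in G2M cells of the YAP5SA libraries, and 12.3, 28.7 and 17.6 CPM in their G1 cells, which overlapped the Control G1 cells. Of the 12 mitotic kinesins, 4 are in the gene list commonly used for the phase call, which fixes part of this. The 8 others had 823, 396 and 397 CPM in YAP5SA G2M cardiomyocytes, beside 824, 652 and 645 CPM in YAP5SA G2M fibroblasts. The phase call was scored from the mRNA of the same cells, so the level of these 8 genes by phase is also only a description. A phase call alone does not show that a cell divides.

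**Figure D4:**
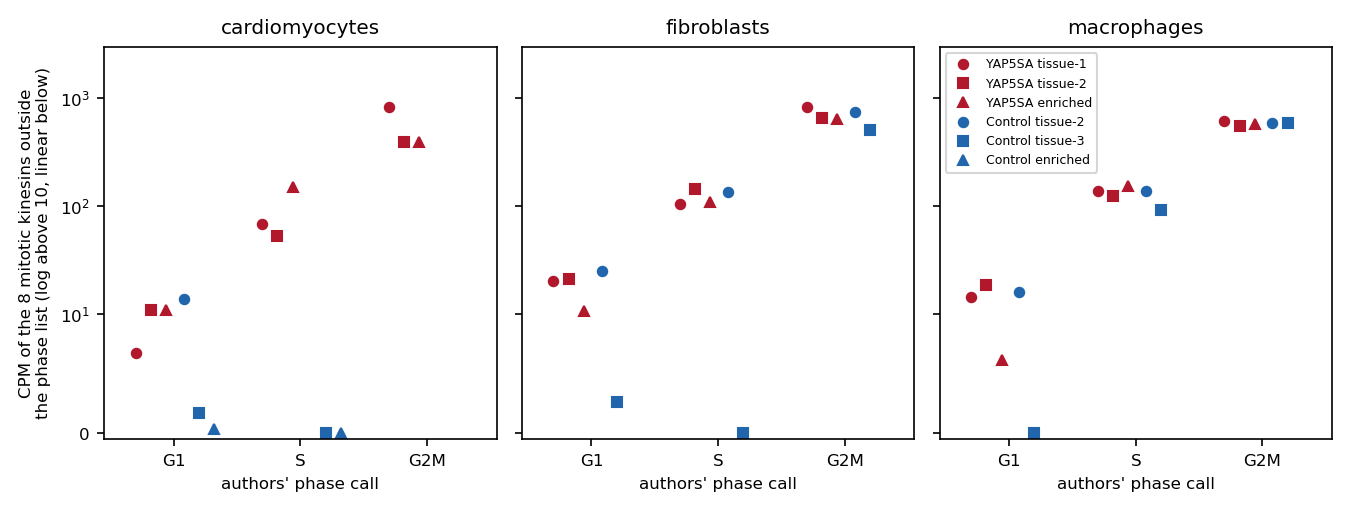
Summed level, in unscaled CPM, of the 8 mitotic kinesins outside the gene list commonly used for the phase call. Values are split by the authors' phase call, cell class and library, and groups under 10 cells are left out. In YAP5SA cardiomyocytes the G2M cells lie between 396 and 823 CPM.

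Markers of some other cell types were higher in YAP5SA cardiomyocytes. Unscaled sums of macrophage, smooth muscle, epicardial and endocardial markers were higher in every YAP5SA library than in any Control library. The same held for 50.2% of all genes tested, each on its own. For endocardial markers the sums were 43.4, 54.7 and 48.1 CPM in YAP5SA, against 15.6, 14.4 and 6.25 CPM in Control. Of the 3 endocardial markers Npr3 was called higher (log2 fold change 2.06), while Emcn (-0.30) and Plvap (-0.75) were not called. Fibroblast, endothelial and pericyte marker sums overlapped between the genotypes. Endothelial sums were 314, 269 and 667 CPM in YAP5SA, against 211, 368 and 303 CPM in Control. In cardiomyocytes the 8 macrophage markers summed to 164, 439 and 183 CPM in YAP5SA, against 105, 46.5 and 7.98 CPM in Control, with 0 markers at 0 in all YAP5SA libraries and 2 at 0 in Control enriched. The 7 fibroblast markers summed to 336, 336 and 453 CPM in YAP5SA, against 130, 373 and 73.6 CPM in Control, with none at 0. Of 8 macrophage markers tested 1 was called higher (Mrc1), and of 6 fibroblast markers 0, beside 13.3% of all genes called higher. Per 100 macrophage marker UMIs, cardiomyocytes held 94.3, 34.7 and 47.0 mitotic kinesin UMIs in YAP5SA, against 17.9, 5.59 and 13.0 in Control. Macrophages themselves held 8.40, 5.71 and 11.2 in YAP5SA, and the cluster Mac4, where their mitotic kinesins were highest, 20.5, 14.4 and 24.9. In Control tissue-2 and tissue-3, macrophages held 4.67 and 7.39, and Mac4 held 14.5 and 35.8. Both were below the cardiomyocytes of the same library in Control tissue-2 and above them in Control tissue-3. In cardiomyocytes with no macrophage marker UMI, the mitotic level was 162, 182 and 76.6 CPM in YAP5SA, against 12.6, 2.67 and 1.05 CPM in Control. In cardiomyocytes with no UMI of either marker list, the mitotic level was 83.8, 54.0 and 64.5 CPM (29, 8 and 107 UMIs) in YAP5SA, against 15.5, 3.43 and 1.14 CPM (18, 8 and 3 UMIs) in Control, and the libraries did not overlap. Median depths of the cells with neither list were 1559, 1583 and 1824 UMIs in YAP5SA, against 2897, 3365 and 2207 in Control. In these cells, by edgeR, 1 of 14 kinesins tested was called (Kif20b), beside 1002 of 9476 genes. Smooth muscle markers summed to 3467, 3094 and 2949 CPM in YAP5SA cardiomyocytes, against 295, 45.1 and 35.4 CPM in Control, and 3 of 4 were called higher. The other, Cnn1, was not called and had a negative log2 fold change (-1.12). Cnn1 gave 414 of the 1004 smooth muscle marker UMIs of Control tissue-2. Of 4 epicardial markers 2 could be tested, and both were called higher, beside the same 13.3% of all genes. The part of these markers in the kinesin result was not tested. Of the 8 cardiomyocyte markers 4 were called lower, beside 12.1% of all genes called lower. Their sums were 32703, 26819 and 36981 CPM in YAP5SA, against 55172, 64691 and 75976 CPM in Control, over all 8 markers.

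The mitotic kinesin pool of YAP5SA cardiomyocytes is shown for 3 genes that were chosen after their values were seen. Kif4 made up 14.6%, 10.9% and 13.6% of mitotic kinesin UMIs in cardiomyocytes of the YAP5SA libraries, beside 5.97%, 7.48% and 6.80% in fibroblasts and 6.23%, 8.12% and 6.07% in macrophages of the same libraries. Kif23 made up 12.8%, 13.0% and 13.1% in cardiomyocytes, beside 26.3%, 24.0% and 23.4% in fibroblasts and 28.2%, 23.4% and 29.1% in macrophages. Kif15 made up 3.05%, 2.60% and 4.46% in cardiomyocytes, beside 6.48%, 11.6% and 7.57% in fibroblasts and 12.7%, 15.0% and 13.4% in macrophages. In each of the 3 libraries Kif4 was the larger share and Kif23 and Kif15 the smaller share in cardiomyocytes. This is a description over 3 libraries of 1 genotype, and no test was made.

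**Figure D5:**
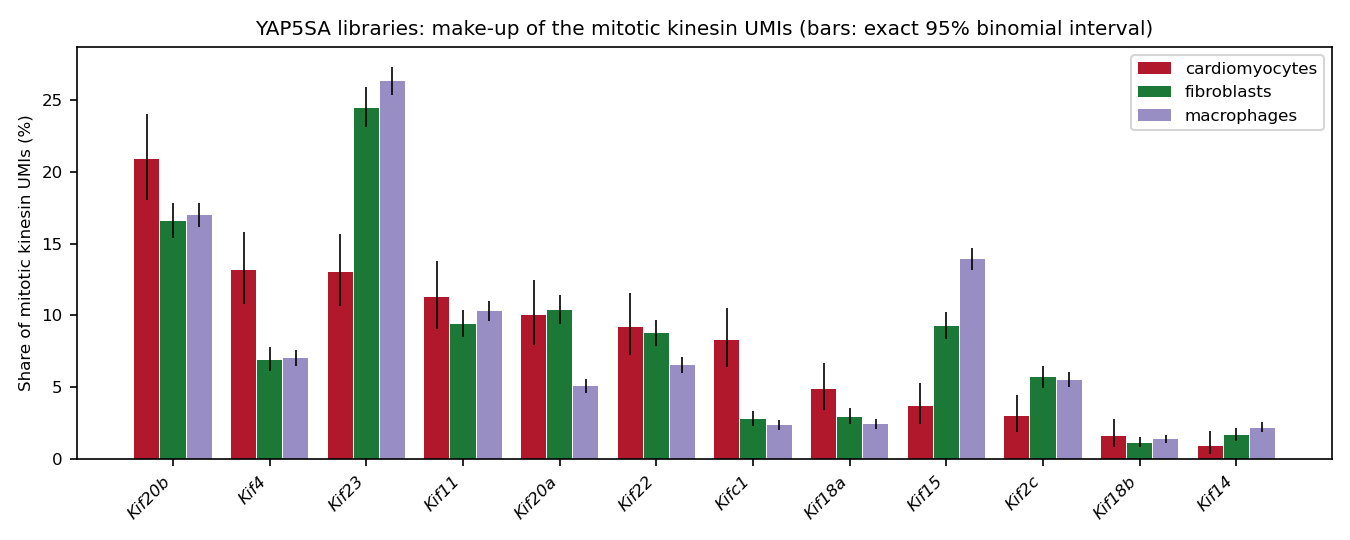
Share of mitotic kinesin UMIs held by each gene in cardiomyocytes, fibroblasts and macrophages of the YAP5SA libraries, in percent, with exact 95% binomial intervals for the pooled counts. Kif23 is 13.0% in cardiomyocytes, 24.5% in fibroblasts and 26.3% in macrophages, and Kif4 is 13.2%, 6.91% and 7.03% in the same order.

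In the other classes no kinesin was called by the main edgeR test or by DESeq2 with all libraries. Without the filter on low counts, edgeR called Kif3a lower in macrophages. In fibroblasts 1.93% of 11417 genes and 0 of 26 kinesins were called, with 0 at an unadjusted p under 0.05 beside 8.01% of all genes, and the median log2 fold change of the mitotic kinesins was 0.13. Their mitotic level was 482, 391 and 497 CPM in YAP5SA, against 630 and 82.2 CPM in Control tissue-2 and tissue-3, so the Control tissue libraries lay on either side of the YAP5SA libraries. Without Control tissue-2, 6 kinesins were called higher in fibroblasts (Kif4, Kif15, Kif20a, Kif22, Kif23 and Kifc1), beside 5.9% of all genes. Control enriched had 10 fibroblasts and 0 mitotic UMIs. In macrophages 0.609% of 12809 genes and 0 of 26 kinesins were called, with 1 at an unadjusted p under 0.05 beside 9.72% of all genes, and the mitotic median was 0.16. Their mitotic level was 704, 512 and 797 CPM in YAP5SA, against 479 and 495 CPM in the Control tissue libraries. The smaller classes had 1 to 11 kinesins tested, 0 called and 0 at an unadjusted p under 0.05. Of all genes, 0.453% were called in epicardial cells and 0% in monocytes, endothelial, endocardial and smooth muscle cells.

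A pair of fits asked whether the genotype effect itself differed between cardiomyocytes and another class, with the class by genotype term and the library as a block. Against fibroblasts, 9.72% of 13011 genes and 9 kinesins had a higher effect in cardiomyocytes: Kif4, Kif11, Kif14, Kif20a, Kif20b, Kif23, Kif2c, Kifc1 and the transport kinesin Kif1c. Against macrophages, of which Control enriched had none, 5.63% of 13386 genes and 7 kinesins did: Kif4, Kif11, Kif20a, Kif20b, Kif23, Kifc1 and Kif1c. The difference of log2 fold changes for Kif4 was 5.40 ± 0.94 against fibroblasts (adjusted p = 1.13e-06) and 5.39 ± 1.03 against macrophages (adjusted p = 0.000722). The fibroblast result rested on 1 library: without Control tissue-2, 2 kinesins were called, and the differences of Kif4, Kif14 and Kifc1 turned to -0.70, -2.35 and -3.05. Without Control tissue-3, 3 kinesins were called against macrophages. Kif14, at 7 and 0 UMIs in YAP5SA and Control cardiomyocytes, rested on few counts, and its fitted difference depends on the prior count.

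Of the transport kinesins, Kif1c, Kif1b and Kif5a had their highest mean level over all libraries in cardiomyocytes. In Control alone Kif1c was nearly level between cardiomyocytes (76.9 CPM) and epicardial cells (76.4 CPM). Kif1b averaged 138 CPM in Control cardiomyocytes, below endothelial cells (175 CPM) and fibroblasts (152 CPM), and Kif5a had 0 UMIs in Control cardiomyocytes. In unscaled CPM Kif1c averaged 244 in cardiomyocytes of the YAP5SA libraries (133 to 323) and 76.9 in those of Control (69.6 to 90.6), while endothelial cells, next in order over all libraries, averaged 66.2 in YAP5SA and 65.2 in Control. Its genotype effect exceeded that of fibroblasts by 1.47 ± 0.52 (adjusted p = 0.0328) and that of macrophages by 1.36 ± 0.44 (adjusted p = 0.0353). Both calls were lost in the fits without either YAP5SA tissue library or either Control tissue library, with adjusted p between 0.0746 and 0.186, and the fibroblast call also without YAP5SA enriched (adjusted p = 0.102).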

How the data were processed

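The deposited table held UMI counts per gene and cell, made by the authors with Picard, STAR and Seurat 2.3.4, per the submitters' processing notes; settings, genome build and annotation are not given in the sources used here. Every value is a whole number, over 21706 cells and 17 clusters that the authors named in a deposited table of cells, with a phase call. A deposited table of scaled values was not used. How the authors treated doublets is not stated in the labels, and none were removed here.

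Overlapping genes carry 1 hyphenated name in 4 of the 6 libraries; 851 such names were merged with their members and 1213 features counted under 1 way of naming were not tested. No kinesin stood in such a name. Counts were summed per library and class of clusters, a library entering with at least 10 cells. The main test was edgeR 4.0.16 in R 4.3.3 (TMM, filterByExpr, robust quasi-likelihood F test, preparation and genotype as terms), with Benjamini-Hochberg adjustment over all genes tested and a threshold of 0.05; DESeq2 1.42.0 was an alternative. Positive log2 fold changes mean higher in YAP5SA, and the standard error is the fold change divided by the square root of F. The fits were tested on simulated data. Sums, thinning to 1000 UMIs per cell, exact 95% Poisson and Clopper-Pearson intervals (counting error only) and motifs used Python 3.11.15 with numpy 2.4.6, scipy 1.17.1 and pandas 2.3.3, and figures used matplotlib 3.10.9. The limit for a count of 0 is 3 counts.

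The members and lists were chosen with earlier results of these data known. A kinesin is given in every library where it was called in cardiomyocytes or had at least 100 UMIs there; of each partner list the 3 genes with the smallest p are named, with any others that were called in lists of few calls.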

Additional observations from a re-analysis of the deposited data

Results flagged for a closer look

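The results below stand here because the effect of genotype on a kinesin gene differed between cardiomyocytes and another cell class by a test of the difference itself (edgeR quasi-likelihood, class by genotype term, library as a block). Each value is the YAP5SA over Control log2 fold change in cardiomyocytes minus that in the other class. Against fibroblasts, the spindle and chromosome motors differed by 3.10 for Kif11, 3.66 for Kifc1, 5.40 for Kif4, 2.60 for Kif2c (adjusted p = 0.0410) and the cytokinesis motors by 3.38 for Kif20b, 3.04 for Kif23, 2.71 for Kif20a and 4.38 for Kif14 (adjusted p = 0.0443), a fitted value against 0 Control UMIs in cardiomyocytes that depends on the prior count. The transport kinesin Kif1c differed by 1.47 (adjusted p = 0.0328). Control tissue-2 and tissue-3 fibroblasts differed between themselves, at 630 and 82.2 CPM of mitotic kinesins, and their part in these differences was not tested beyond leaving each out.

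Against macrophages, of which Control enriched had none, the difference was 2.88 for Kif11, 4.05 for Kifc1, 5.39 for Kif4, 3.97 for Kif20b, 3.06 for Kif23 and 3.08 for Kif20a, and 1.36 for Kif1c (adjusted p = 0.0353).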

How the results depend on the processing

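In cardiomyocytes the number of kinesins called higher was 9 with RLE size factors, with DESeq2 and with at least 30 cells, and the same 9 genes were called in each. It was 10 without a filter, 7 with genotype alone, with tissue libraries alone or with names as deposited, and 16 with library totals alone. Of mitotic and transport kinesins, library totals called 7 transport genes, no filter 1 (Kif5a), tissue libraries alone 1 (Kif13a) and, added after seeing the data, the 4 libraries with joined names 2 (Kif1c and Kif13a). Also added after seeing the data, cardiomyocytes without the cluster YAP5SAcm gave 0 called kinesins and 0 mitotic, and those without a macrophage or fibroblast marker UMI gave 1 and 1 mitotic, on 13 and 14 kinesins tested.

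Leaving out each library in turn gave 1 to 13 kinesins called higher in cardiomyocytes, 0 to 2 lower, 1 to 10 mitotic and 0 to 3 transport. Fibroblasts gave 0 to 6 higher, the 6 without Control tissue-2 (Kif4, Kif15, Kif20a, Kif22, Kif23 and Kifc1), and 0 to 1 lower, the 1 being Kif14 without Control tissue-3. Macrophages gave 0 to 1 lower, Kif3a without Control tissue-3, and Kif3a was also the 1 called lower there without a filter. In the cluster YAP5SAcm library totals called 1, Kif23. The kinesins whose effect differed from fibroblasts numbered 17 with library totals and 2 to 8 leaving out libraries, and from macrophages 12 and 3 to 7. The cause was not tested.

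Signs of uncalled log2 fold changes turned as follows. With library totals alone Kif13b was 0.83, Kif16b 0.26, Kif1b 0.82, Kif21a 0.35 and Kif2a 0.57. In tissue libraries alone Kif1b was 0.14 and Kif3a -0.10. In the 4 libraries with joined names Kif1b was 0.66, Kif22 -0.36, Kif3a -0.31 and Kif5b -0.080. Kif1b was 0.067 without YAP5SAcm and 0.19 in the marker-free cells. Leaving out libraries gave -0.18 to 0.21 for Kif13b, -0.37 to 0.16 for Kif1b, -0.65 to 0.014 for Kif2a and -0.14 to 0.27 for Kif3a. The difference from fibroblasts ran from -2.35 to 5.38 for Kif14, from -0.70 to 5.62 for Kif4 and from -3.05 to 4.54 for Kifc1, the lowest each time without Control tissue-2.

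The mean share of cardiomyocytes with a mitotic UMI was 14.5% without thinning and 4.54% at 500 UMIs in YAP5SA, and 3.38% without thinning and 0.523% at 500 UMIs in Control. No paired analysis was possible because the table of cells numbers the YAP5SA tissue libraries 1 and 2 and the sample titles 2 and 3, so the numbers pair no libraries. Depth limits the low kinesins, and the enriched libraries, 1 per genotype, carry no genotype contrast when either is left out.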

Other observations

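Kinesins outside the cardiomyocyte comparison showed cell class patterns, given here as mean unscaled CPM over libraries with no test. Kif26a, a kinesin without known motility, averaged 38.3 CPM in endocardial cells of YAP5SA (18.7 to 59.5) and 31.9 CPM in those of Control (0 to 52.5), beside 27.6 and 40.2 CPM in endothelial cells, 32.5 and 21.0 CPM in smooth muscle cells and 1.31 and 0.442 CPM in cardiomyocytes of YAP5SA and Control. Kif21b averaged 16.2 CPM in monocytes of YAP5SA and 0 in those of Control, on 14 UMIs, and 10.2 CPM in macrophages of YAP5SA and 5.33 CPM in those of Control, beside 0.226 and 0.0456 CPM in cardiomyocytes. Of the 12 mitotic kinesins, 10 had their highest mean over libraries in macrophages, Kif20a in fibroblasts and Kif18a in monocytes, the last on 15 UMIs. This order depends on the libraries: macrophage means are over 5 libraries, fibroblast means also hold Control enriched with 10 cells and 0 mitotic UMIs, and in Control tissue-2 the mitotic sum was 630 CPM in fibroblasts, above 479 CPM in macrophages. The endothelial cells held 164, 71.1 and 112 CPM of mitotic kinesins in the YAP5SA libraries, against 114, 66.1 and 26.8 CPM in the Control libraries, on 11 to 106 UMIs per library, and the genotypes overlapped.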
